A study of Mus musculus with 11 samples.

Results

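The genes of MHC class II and antigen presentation were followed through the RNA-seq counts of pancreas and epididymal adipose tissue of mice with obesity-related alcohol-induced acute pancreatitis (OA-AP). The 10 genes were chosen by name: H2-Aa, H2-Ab1, H2-Eb1, H2-DMa, H2-DMb1, Cd74 and Ciita of the class II pathway, and H2-K1, H2-D1 and Tap1 of the class I pathway. All 10 were found among the 46078 genes of the adipose table and among the 54532 genes of the pancreas table. The study compared OA-AP mice with control mice, and its samples make 4 groups: adipose control (n = 3), adipose OA-AP (n = 3), pancreas control (n = 2) and pancreas OA-AP (n = 3). All mice were wild type males, labelled C57BL/6 and 16 weeks old, with the substrain C57BL/6J given in the study's methods. The control group ate normal chow for 12 weeks and was injected with saline, and the OA-AP group ate high-fat food over the same time and was injected intraperitoneally with 2 g/kg ethanol on 2 occasions 1 h apart, with tissue taken 12 h after the first. Diet and ethanol therefore differ together between the groups, and their effects cannot be told apart here. The labels do not say whether the libraries of a group came from separate mice, so that p-values measure only the spread between these libraries, which may be technical.

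MHC class II molecules are pairs of an alpha and a beta chain that carry peptides from engulfed protein to the surface of antigen-presenting cells, where CD4+ T cells read them. Macrophages, dendritic cells and B cells are their main source in adipose tissue and pancreas, and the transcription co-activator CIITA switches the whole gene set on. MHC class I molecules are made by nearly every cell and carry peptides from the cell's own proteasome, which TAP pumps into the endoplasmic reticulum.

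In adipose tissue all 7 class II pathway genes fell in the OA-AP group, by 1.99-fold to 2.4-fold, whereas none of the 3 class I pathway genes passed the test in either direction. In the pancreas, where the class II pathway genes were scarcer, H2-Aa, H2-Ab1, H2-Eb1 and Cd74 fell by 1.72-fold to 2.12-fold under the scaling used, and the pancreatic calls were lost when libraries were scaled by their totals alone. A gene was called when it differed by at least 1.5-fold and its p-value in edgeR's quasi-likelihood test, adjusted by Benjamini-Hochberg over all genes of the tissue, was under 0.05. Of all genes tested, 25.1% were called in adipose tissue (13.0% as lower) and 29.8% in the pancreas (13.5% as lower).

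The libraries held 20825177 to 27928097 counts in adipose tissue and 14188832 to 17238919 in the pancreas. The labelled tissues matched their markers. The 5 adipocyte genes, Adipoq among them, summed to 23685 to 28456 CPM (counts scaled to a common library size) in every adipose library, and the 6 acinar genes took 23.4% to 36.4% of pancreatic counts. Adipose control replicate 2 stood apart with 4067 CPM from acinar genes (0.425% of its counts), against 0.111 to 2.73 CPM in the other adipose libraries. It also held the highest level of each of the 10 genes among the adipose libraries, so values without it are given where they matter. All 6 acinar genes fell in the OA-AP pancreas, and the scaling factors (TMM, which centre the bulk of genes between libraries) were 0.7 and 0.79 in the control and 1.11 to 1.32 in the OA-AP pancreas libraries, against 0.93 to 1.06 in adipose tissue.

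Before any comparison, the genes differed widely in level. Levels between genes are given as CPM per kb of the gene length listed in the deposited table. In control adipose tissue H2-D1 stood at 479 ± 114 (SD, n = 3), Cd74 at 359 ± 75.9 and H2-K1 at 314 ± 89.9 CPM per kb. The chains H2-Aa (143 ± 31.1), H2-Ab1 (137 ± 28.9) and H2-Eb1 (134 ± 30) followed within one SD of each other on the same scale. H2-DMa and H2-DMb1, both at 13.6, and Tap1 at 12.5 CPM per kb came next, and Ciita was lowest at 0.954 ± 0.317. The control pancreas gave a different order, with H2-K1 (50.4 ± 4.81, n = 2) and H2-D1 (43.7 ± 3.08) above Cd74 (17.2 ± 5.9), H2-Eb1 (10.6 ± 1.3), H2-Aa (6.57 ± 1.46) and H2-Ab1 (6.33 ± 1.2) CPM per kb. Tap1 (1.32 CPM per kb) followed, and H2-DMb1 (0.582), H2-DMa (0.492) and Ciita (0.122) were lowest, with 5 to 13 counts for H2-DMa, 7 to 12 for H2-DMb1 and 12 to 13 for Ciita in the control libraries. The tissues were scaled separately, so the levels stand side by side without a test.

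**Figure D1:**
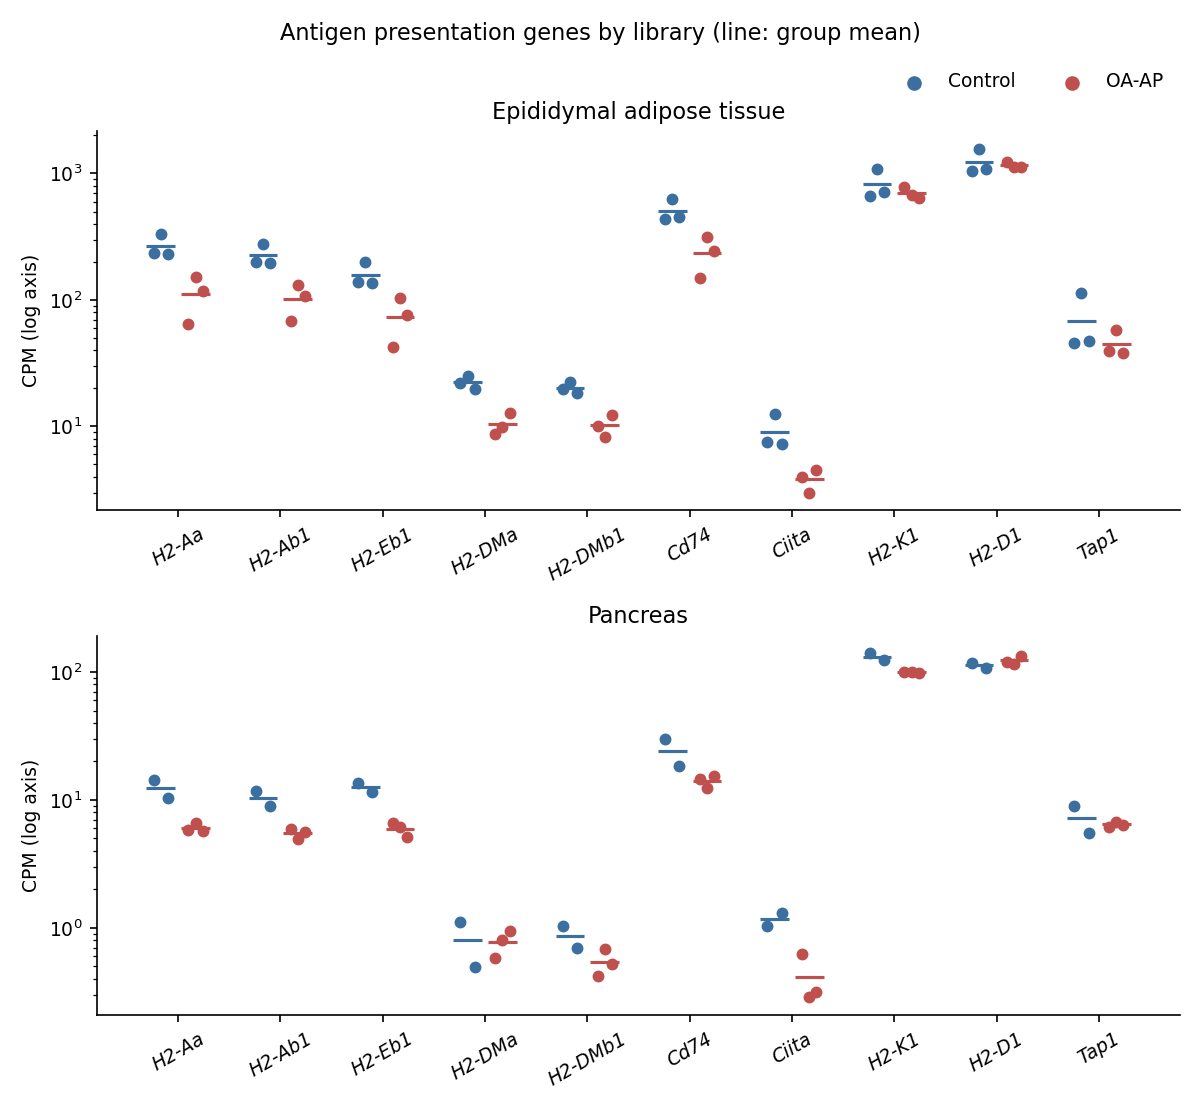
Level of each of the 10 genes in CPM on a log axis, with 1 point per library and a line at the group mean, in adipose tissue (top) and pancreas (bottom). In adipose tissue the OA-AP points of the 7 class II pathway genes lie below every control point, while the groups overlap for H2-K1, H2-D1 and Tap1.

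The first comparison asked how the class II chains changed in the adipose tissue of OA-AP mice. H2-Aa, the alpha chain of the I-A molecule, had 237, 335 and 232 CPM in control replicates 1 to 3 and 64.4, 153 and 117 CPM in OA-AP replicates 1 to 3. Its partner, the beta chain H2-Ab1, had 201, 279 and 195 CPM in the control and 67.7, 132 and 108 CPM in the OA-AP group. H2-Eb1, the beta chain of I-E, had 139, 199.7 and 137 CPM in the control and 42.1, 103 and 76 CPM in the OA-AP group. The groups did not overlap for any of the 3 chains, and OA-AP replicate 1 was lowest in all of them. The log2 fold change of OA-AP over control was -1.26 for H2-Aa (SE 0.319, adjusted p = 0.0223, edgeR quasi-likelihood test), -1.13 for H2-Ab1 (SE 0.263, adjusted p = 0.0163) and -1.11 for H2-Eb1 (SE 0.326, adjusted p = 0.0373). Without control replicate 2, the library with acinar RNA, H2-Aa stood at -1.06 with an adjusted p of 0.0652 and H2-Eb1 at -0.89 with 0.108 in the same edgeR test, so both calls were lost, while H2-Ab1 was called in each of the 13 alternatives tried.

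H2-Ea-ps, the row of the alpha chain of I-E, which C57BL/6 mice are known not to express, had 0 counts in all libraries of both tissues. A read that came from any of the 3 chains had little to be confused with. In GENCODE transcripts, none of the 150-base windows of H2-Aa, H2-Ab1 or H2-Eb1 occurred in a transcript of another gene.

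Cd74, the invariant chain, plugs the groove of newly made class II molecules and escorts them to the endosome. It had 435, 629 and 455 CPM in control adipose tissue and 149, 313 and 243 CPM in the OA-AP group, with no overlap and again the lowest value in OA-AP replicate 1. The log2 fold change was -1.11 (SE 0.283, adjusted p = 0.0221, edgeR quasi-likelihood test). It was -0.91 with an adjusted p of 0.0671 by edgeR without control replicate 2. Cd74 fell slightly less than H2-Aa within the libraries. There were 1.84 to 1.96 Cd74 counts for each H2-Aa count in the controls and 2.05 to 2.32 in the OA-AP group. H2-Aa was thus lower relative to Cd74 in every OA-AP library than in any control.

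H2-DMa and H2-DMb1 encode the chains of H2-DM, the endosomal editor that removes the Cd74 remnant and loads peptide. H2-DMa had 22.1, 24.9 and 19.9 CPM in the control and 8.76, 9.9 and 12.7 CPM in the OA-AP group. H2-DMb1 had 19.9, 22.6 and 18.3 CPM in the control and 10.1, 8.27 and 12.2 CPM in the OA-AP group. Neither gene overlapped between groups, and here OA-AP replicate 3 was highest rather than replicate 2. The log2 fold changes were -1.09 for H2-DMa (SE 0.163, adjusted p = 0.00306, edgeR) and -0.99 for H2-DMb1 (SE 0.164, adjusted p = 0.00437, edgeR). Both were called in each of the 13 alternatives that kept the 1.5-fold minimum, while H2-DMb1, at 1.99-fold, fell short of a 2-fold minimum. H2-DMb1 has a near copy, H2-DMb2, in which 5.74% of its 150-base windows recur, and the counting of such reads was not given in the sources used here. H2-DMb2 fell as well, by 1.00 on the log2 scale (adjusted p = 0.0266, edgeR).

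Ciita, the co-activator that drives the other class II genes, was the least abundant. Its CPM was 7.49, 12.6 and 7.22 in control adipose tissue and 3.99, 2.98 and 4.49 in the OA-AP group, resting on 203 to 297 and 62 to 89 counts per library. The groups did not overlap, and the log2 fold change was -1.25 (SE 0.274, adjusted p = 0.0121, edgeR quasi-likelihood test), called in each of the 13 alternatives. OA-AP replicate 1, which was lowest for the 3 chains and Cd74, was not the lowest for Ciita.

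Of the 10 genes, 7 were thus called lower and 0 higher in adipose tissue, against 13.0% of the 15839 genes tested that were called lower and 12.1% called higher. With 1 library left out, 4 to 7 were called, the 4 without control replicate 2, control replicate 3 or OA-AP replicate 3, and without any filter on low counts 4 were. Without any overlap between groups were 7 of the 10, all with the OA-AP group lower, against 26.0% of all genes tested in that direction, 26.4% in the other and 52.4% in both together. The median log2 fold change of the 10 genes was -1.1, beside -0.01 over all genes tested. In bulk RNA, fewer cells of a type and less RNA per cell cannot be told apart.

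The class I genes of adipose tissue gave a different picture. H2-K1, a classical class I heavy chain, had 660.2, 1089 and 709.8 CPM in the control and 788, 681 and 636 CPM in the OA-AP group. H2-D1, the other classical heavy chain of this strain, had 1053, 1574 and 1081 CPM in the control and 1222, 1132 and 1117 CPM in the OA-AP group. Tap1, one subunit of the peptide pump, had 45.7, 113 and 47.3 CPM in the control and 39.5, 57.7 and 38.2 CPM in the OA-AP group. For all 3 genes the groups overlapped, and control replicate 2 was the highest library. The log2 fold change was -0.22 for H2-K1 (95% interval -0.72 to 0.27) and -0.10 for H2-D1 (-0.53 to 0.33), intervals that leave room for a change of either sign but not for a fall as large as the estimates for the class II chains. For Tap1 it was -0.60 with a wide interval of -1.51 to 0.3. Without control replicate 2 the estimates for H2-K1 and H2-D1 turned to 0.04 and 0.12.

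**Figure D2:**
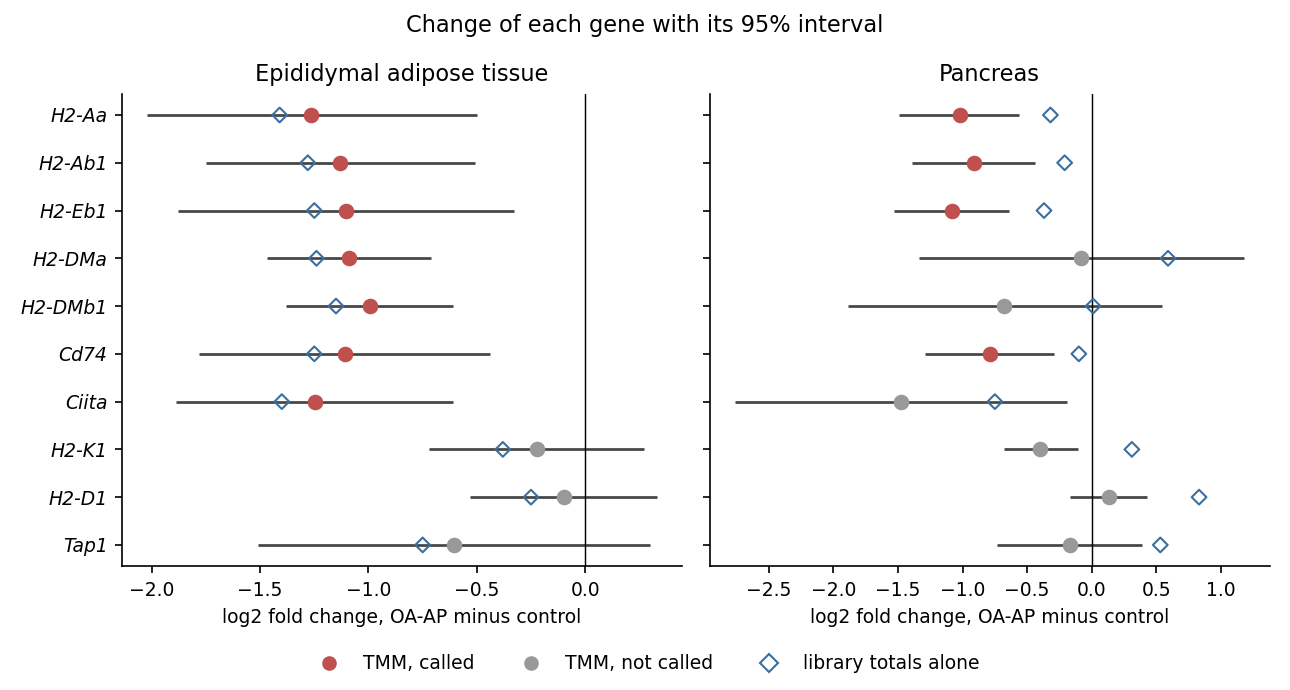
Log2 fold change of OA-AP over control for each gene, with bars for the 95% interval of the TMM-scaled edgeR estimate, red circles for called and grey for uncalled genes, and open diamonds for the estimate under library totals alone. In adipose tissue circles and diamonds lie close together, and in the pancreas every diamond lies to the right of its circle.

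In the pancreas each class II chain had 86 to 166 counts per library, fewer than in any adipose library. H2-Aa had 14.2 and 10.4 CPM in control replicates 1 and 2 and 5.83, 6.64 and 5.75 CPM in OA-AP replicates 1 to 3. H2-Ab1 had 11.8 and 8.97 CPM in the control and 5.93, 4.92 and 5.65 CPM in the OA-AP group. H2-Eb1 had 13.6 and 11.5 CPM in the control and 6.56, 6.12 and 5.13 CPM in the OA-AP group. All OA-AP libraries lay below both controls for each chain, and control replicate 1 was the highest throughout. The log2 fold changes were -1.02 for H2-Aa (SE 0.202, adjusted p = 0.00668, edgeR quasi-likelihood test), -0.91 for H2-Ab1 (SE 0.206, adjusted p = 0.0118) and -1.08 for H2-Eb1 (SE 0.193, adjusted p = 0.0044). Cd74, with 30.1 and 18.3 CPM in the control and 14.6, 12.4 and 15.3 CPM in the OA-AP group, was also called lower (-0.79, SE 0.217, adjusted p = 0.0261, edgeR).

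The pancreatic calls rested on the scaling and on few libraries. Scaled by library totals alone, the log2 fold change was -0.32 for H2-Aa, -0.21 for H2-Ab1, -0.37 for H2-Eb1 and -0.10 for Cd74, and none of the 4 was called. Under that scaling the median over all genes moved from 0.04 to 0.75, so that the class II chains stayed below the median gene under both. Without control replicate 1, 0 of the 10 genes were called. Of all 12884 genes tested in the pancreas, 13.5% were called lower and 29.4% had all OA-AP libraries below the controls (62.3% in either direction), against 4 and 7 of the 10 genes here. The shares for higher genes were 16.2% and 32.9%, and none of the 10 genes was called higher.

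The scarcer class II genes could not be resolved in the pancreas. Ciita had 12 and 13 counts in the control and 12, 5 and 6 in the OA-AP libraries, or 1.03 and 1.3 CPM against 0.63, 0.286 and 0.314 CPM, with a log2 fold change of -1.48 and a 95% interval from -2.76 to -0.19 (adjusted p = 0.0745, edgeR). H2-DMb1 stood at -0.68 (-1.89 to 0.54) and H2-DMa at -0.08 (-1.34 to 1.18), on at most 18 counts in any library. At this depth a fall of the size seen in adipose tissue was not detectable for either H2-DM gene.

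Among the class I genes of the pancreas, H2-K1 and H2-D1 parted. H2-K1 had 140.4 and 123 CPM in the control and 100.3, 100.3 and 98.9 CPM in the OA-AP group. H2-D1 had 118 and 107 CPM in the control and 120.4, 116 and 133 CPM in the OA-AP group. By these values H2-K1 was lower in every OA-AP library and H2-D1 overlapped between groups, but under library totals H2-K1 turned to a log2 fold change of 0.31 and H2-D1 was called higher at 0.83 (adjusted p = 0.00128, edgeR). The log2 fold change of H2-K1 was -0.40 (SE 0.124, adjusted p = 0.0399, edgeR), past the p-value threshold but short of the 1.5-fold minimum, and that of H2-D1 was 0.13 (95% interval -0.17 to 0.43). Their ratio within a library does not depend on any scaling: there were 1.19 and 1.15 H2-K1 counts per H2-D1 count in the control and 0.833, 0.863 and 0.741 in the OA-AP pancreas, with no overlap. In adipose tissue the same ratio was 0.627 to 0.692 in the control and 0.57 to 0.645 in the OA-AP group, which overlapped. Of the 150-base windows of H2-D1, 1.54% recur in another gene, mostly H2-Q1, and none of H2-K1. Tap1 had 8.92 and 5.48 CPM in the control pancreas and 6.19, 6.75 and 6.38 CPM in the OA-AP group, within the spread of the controls.

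A ratio within each library also set the class II chains against class I without any scaling. For each 100 counts of H2-K1 and H2-D1 together, control adipose libraries held 33.7, 30.6 and 31.4 counts of H2-Aa, H2-Ab1 and H2-Eb1, and OA-AP libraries held 8.67, 21.4 and 17.2. Control pancreas libraries held 15.3 and 13.4, and OA-AP pancreas libraries held 8.3, 8.16 and 7.11. The groups did not overlap in either tissue. Adipose control replicate 2, which was highest for each gene by CPM, was the lowest of the controls by this ratio. The ratio shows unequal change of the 2 classes and not which of them changed.

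**Figure D3:**
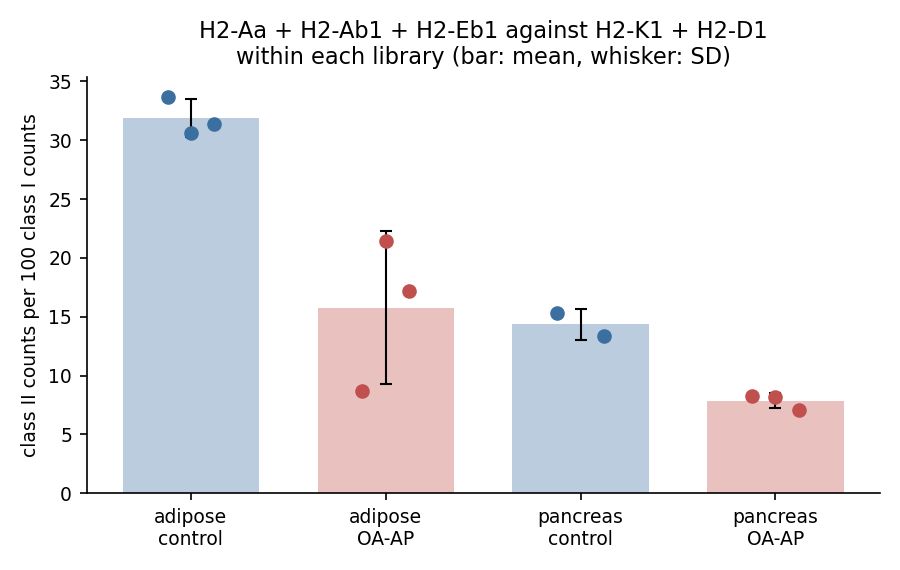
Counts of H2-Aa, H2-Ab1 and H2-Eb1 per 100 counts of H2-K1 and H2-D1 in each library, with bars at the group mean, whiskers for the SD and 1 point per library. All OA-AP libraries lie below the controls of their tissue, with the widest spread, 8.67 to 21.4, in the OA-AP adipose group.

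Whether the change differed between tissues was tested with the tissue by condition term over all 11 libraries, taken as independent. Pancreas and adipose libraries of a group that carry the same number may or may not share a mouse, which the labels leave unsaid, and a block that pairs them also called 0 of the 10 genes. None of the 10 genes was called in edgeR's quasi-likelihood test, against 21.3% of the 17046 genes tested, 1 of the 10 had an unadjusted p-value under 0.05, and DESeq2 called 0 as well. Under library totals 2 were called, H2-DMa (-1.83, adjusted p = 0.00729, edgeR) and H2-D1 (-1.07, adjusted p = 0.00787, edgeR). The gene with the low unadjusted p-value was H2-DMa, whose adipose change lay 1.01 below its pancreatic change on the log2 scale in the interval from -2.02 to 0 (adjusted p = 0.148, edgeR). For H2-Aa, H2-Ab1, H2-Eb1 and Cd74 the difference was -0.24, -0.22, -0.03 and -0.32, with 95% intervals that reached at least from -1.02 to 0.6, so a common size of change in both tissues is not shown.

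MHC promoters are known to carry short elements that bind the regulators of these genes: in class II promoters an X box, which binds the RFX complex in its first part and CREB-type factors in its second, and a Y box, which binds NF-Y, together hold CIITA, and class I promoters add a kB site for NF-kB. The sequences below show these letters for 2 class II chains that fell together and for H2-K1, which was not called. They are RefSeq promoter windows on GRCm38.p6, given in the direction of transcription from 180 bases before to 20 after the RefSeq start, and capitals mark the searched letters on either strand: TGACGT (second part of the X box) and ATTGG (Y box, CCAAT on the other strand), and in H2-K1 also the 11 letters of the kB site.
H2-Aa, chr17:34287804-34288003, minus strand: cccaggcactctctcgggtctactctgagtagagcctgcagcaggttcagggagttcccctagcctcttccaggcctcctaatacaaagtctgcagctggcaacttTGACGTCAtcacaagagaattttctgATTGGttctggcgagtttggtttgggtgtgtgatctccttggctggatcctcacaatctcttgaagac
H2-Eb1, chr17:34305687-34305886, plus strand: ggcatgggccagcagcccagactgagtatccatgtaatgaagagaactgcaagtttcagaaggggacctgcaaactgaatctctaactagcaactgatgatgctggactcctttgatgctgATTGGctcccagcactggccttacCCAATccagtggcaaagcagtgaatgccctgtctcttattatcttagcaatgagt
H2-K1, chr17:34000328-34000527, minus strand: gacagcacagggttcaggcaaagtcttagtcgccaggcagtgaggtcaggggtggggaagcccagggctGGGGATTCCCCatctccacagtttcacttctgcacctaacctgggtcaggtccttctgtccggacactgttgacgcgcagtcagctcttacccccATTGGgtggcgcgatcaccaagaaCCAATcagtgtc

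In H2-Aa the second X box letters began 74 bases before the start and the Y box 48 before, and H2-Eb1 had Y box letters at 59 and, reversed, 35 bases before. H2-K1 carried the kB letters 111 bases before the start and Y box letters on both sides of it. H2-D1, whose window is not printed, carried the same kB letters 171 bases before its start. The 14-letter motif of the first part of the X box was matched in a gene of either class, as CCTAGTAACTGATG 98 bases before the start in H2-DMb1 and as CCGGGACACTGATG 113 bases before in H2-D1. Of 32851 RefSeq windows that ran from 250 bases before to 50 after a start, 0.749% held the first X box motif, 7.51% TGACGT, 37.4% ATTGG and 0.0304% the kB letters. The Y box letters are therefore common, and any match is a description of the letters and not evidence of binding. RefSeq windows were matched for 7 of the genes, and those of H2-Ab1 and Ciita were not among them. The sequence and position of Cd74 were not analysed here. On GRCm38 as given in the deposited table, H2-Aa lies at chr17:34282744-34287827, H2-Ab1 at chr17:34263209-34269418, H2-Eb1 at chr17:34305877-34316199, H2-DMa at chr17:34135182-34139101 and H2-DMb1 at chr17:34153072-34160230. H2-K1 (chr17:33996017-34000333), Tap1 (chr17:34187553-34197225) and H2-D1 (chr17:35262730-35267499) lie in the same region of chromosome 17, and Ciita lies elsewhere, at chr16:10480059-10528418.

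Under TMM scaling the wider class II machinery was called about as often as all genes in both tissues. Of 16 listed partners (the H2-DO chains, the RFX and NF-Y subunits, the proteases that cut Cd74 and antigen, and March1, a ligase that removes class II from the surface), 13 were tested in adipose tissue, where 2 fell and 1 rose, with a median log2 fold change of 0.13 beside -0.01 over all genes tested. The shares of all genes tested there were 13.0% called lower and 12.1% called higher. H2-Ob, the beta chain of H2-DO, a brake on H2-DM found mostly in B cells, had 2.07, 5.64 and 2.72 CPM in the control and 0.829, 0.673 and 0.96 CPM in the OA-AP group and fell by 2.07 on the log2 scale (adjusted p = 0.0099, edgeR). Ctsl, cathepsin L, rose by 0.91 (adjusted p = 0.00629, edgeR). Cathepsin S (Ctss), the protease that trims Cd74 in most antigen-presenting cells, stood at 0.13 (95% interval -0.47 to 0.73), and Rfx5, a subunit of the X box complex, at -0.37 (-0.68 to -0.05, adjusted p = 0.0673, edgeR). In the pancreas 11 partners were tested, with a median log2 fold change of 0.17 beside 0.04 over all genes tested. Among these partners 3 rose and 0 fell, against 16.2% and 13.5% of all genes tested. Those that rose were the protease Lgmn (2.56), Ctsl (1.55) and Nfya (0.97), which encodes an NF-Y subunit, with edgeR adjusted p-values of 0.0027, 0.00286 and 0.0107. Under library totals 6 rose and 0 fell. Rfx5 stood at -0.46 (-1.19 to 0.27) and Ctss at 0.19 (-0.48 to 0.86) there.

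The class I machinery was called mostly lower in the pancreas, and the call depended on the scaling. Of 20 partners tested in the pancreas (beta-2 microglobulin, the regulator Nlrc5, peptide loading proteins, immunoproteasome subunits and non-classical heavy chains), 10 fell and 1 rose, with a median log2 fold change of -0.63. Over all genes tested there, 13.5% were called lower and 16.2% higher, and the median was 0.04. B2m, the light chain of every class I molecule, had 68.6 and 47.2 CPM in the control and 19.2, 25.6 and 19.5 CPM in the OA-AP pancreas, a log2 fold change of -1.44 (adjusted p = 0.00158, edgeR). Psmb10, an immunoproteasome subunit, had 88.5 and 112 CPM in the control and 19.1, 23.8 and 22.8 CPM in the OA-AP group and fell by 2.20 on the log2 scale (adjusted p = 0.000114, edgeR). For both genes every control library lay well above every OA-AP library. Psmb9 (-1.74, adjusted p = 0.0187), H2-Q6 (-1.60, adjusted p = 0.00139) and Nlrc5, the class I counterpart of Ciita (-1.40, adjusted p = 0.0243), were also called lower by edgeR, Tapbpl, a loading protein, rose (1.06, adjusted p = 0.0131), and Psmb8 stood at -0.87 (-1.85 to 0.11). Under library totals 3 of the 20 fell (Psmb10, B2m and H2-Q6) and 3 rose (Pdia3, Tap2 and Tapbpl), and without control replicate 1, without control replicate 2 or without OA-AP replicate 1 the number called was 3, 5 and 5.

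In adipose tissue 0 of the same 20 partners were called by edgeR, against 25.1% of all genes tested. Of the 20, 6 had an unadjusted p-value under 0.05. DESeq2 called 3 lower (Psmb9, H2-Q4 and H2-T23), and library totals gave 5 lower, the same 3 with Tap2 and H2-M3. The list had a median of -0.12 on the log2 scale, beside -0.01 over all genes tested. B2m stood at 0.09 (95% interval -0.55 to 0.73), with 1449.8, 2815 and 1452 CPM in the control and 1985, 2116 and 1974 CPM in the OA-AP libraries. Nlrc5 stood at -0.10 (-0.85 to 0.65), Psmb8 at -0.37 (-0.96 to 0.21) and Psmb9 at -0.77 (-1.41 to -0.13, adjusted p = 0.0616, edgeR). The highest library for B2m and Nlrc5 was again adipose control replicate 2, and for B2m the other controls lay below all OA-AP libraries. In the test of the difference between tissues 5 of the 20 partners were called, near the 21.3% of all genes and in both directions: the adipose change was above the pancreatic one for B2m, Tapbp and Psmb10 and below it for Tap2 and Tapbpl.

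Interferon gamma is the classical inducer of both CIITA and the class I genes, through JAK kinases and IRF1. Ifng itself had 0 counts in all pancreas libraries and at most 4 counts in any adipose library. In the pancreas, Irf1 fell (-0.92, adjusted p = 0.0294, edgeR) and Jak2 rose (0.90, adjusted p = 0.0147, edgeR). Neither was called without pancreas control replicate 1 or without control replicate 2, and Irf1 was not called without OA-AP replicate 1 or under library totals. In adipose tissue Jak2 (0.70), Jak1 (0.65) and the receptor chain Ifngr2 (0.63) rose with edgeR adjusted p-values of 0.00404, 0.00566 and 0.00685. Under library totals all 3 calls were lost and Irf1 was called instead, lower. Irf1 stood at -0.60 (-1.18 to -0.02, adjusted p = 0.0958, edgeR) in adipose tissue, not past the threshold with TMM scaling.

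Co-stimulation gives T cells their second signal, and the list of 6 genes set up for it also holds inhibitory ligands of PD-1. Of these 6 genes, 5 were tested in adipose tissue. Cd80 rose by 1.41 on the log2 scale (adjusted p = 0.00269, edgeR) from 1.4 ± 0.171 to 3.71 ± 0.306 CPM, and Cd83, a marker of mature dendritic cells that also stabilises class II at the surface, fell by 1.78 (adjusted p = 0.00927, edgeR) from 10.1 ± 3.9 to 2.93 ± 1.05 CPM (SD, n = 3 each). In the pancreas 1 of the 6, an inhibitory ligand of PD-1, was tested. It was not called by edgeR or DESeq2, with 0 at an unadjusted p-value under 0.05.

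The levels of the cell types that carry class II were set beside the result. In adipose tissue the 8 macrophage genes summed to 962, 1236 and 1010.4 CPM in the control and 1056, 1149.5 and 1544 CPM in the OA-AP group, which overlapped. Of these, Mrc1 (1.21) and Cd68 (0.64) rose and Csf1r fell (-0.81) with edgeR adjusted p-values of 0.00688, 0.0413 and 0.0134. The 8 dendritic cell genes summed to 55.9 to 83.7 CPM in the control and 55.7 to 73.4 CPM in the OA-AP group. Of these 1, Xcr1 of the cross-presenting type, fell (-1.47, adjusted p = 0.00958, edgeR), on 28 to 32 against 6 to 11 counts. Clec9a (-0.40) and Batf3 (0.13), markers of the same type, were not called. Among all adipose genes tested, 13.0% were called lower and 12.1% higher. Per macrophage list count there were 0.6, 0.659 and 0.557 class II chain counts in the control and 0.165, 0.337 and 0.195 in the OA-AP libraries. Per dendritic cell list count there were 10.3, 9.73 and 10.1 in the control and 2.68, 6.97 and 4.11 in the OA-AP libraries. Zbtb46 made up 46.3% to 57.9% of the dendritic cell sum. Lyz2 was the most abundant gene of the macrophage sum, with means of 369 CPM in the control and 425 CPM in the OA-AP group. Neither sum counts cells, so the ratios are not class II per cell. Neither ratio overlapped between groups, and in both OA-AP replicate 1 was lowest.

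B cell genes moved with the class II genes in adipose tissue. Their 8 genes summed to 9.23, 51.4 and 16.4 CPM in the control and 2.23, 2.55 and 4.34 CPM in the OA-AP group, without overlap. Of 7 tested, 6 fell, with a median log2 fold change of -3.12. Over all adipose genes tested, 13.0% were called lower and 12.1% higher, which is the share to set beside each list count here. Cd79b, part of the B cell receptor, had 1.92, 6.86 and 2.72 CPM in the control and 0.363, 0.481 and 0.455 CPM in the OA-AP group (-3.12, adjusted p = 0.00633, edgeR), and Cd22 (-2.79, adjusted p = 0.0173, edgeR) and Ms4a1 (-4.10, adjusted p = 0.0215, edgeR) fell too. Control replicate 2 was the highest B cell library by a wide margin. Without it 5 of the list were called, and without OA-AP replicate 1 or OA-AP replicate 2 the number was 3 and 2. T cell genes summed to 4.73 to 11.8 CPM in the control and 2.38 to 5.15 CPM in the OA-AP group, with 2 of 5 tested called lower but at most 1 with any library left out, and 0 without control replicate 1, control replicate 2 or OA-AP replicate 2. Fibroblast genes summed to 2303 to 2842 CPM in the control and 1272 to 1625 CPM in the OA-AP group, with 3 of 4 called lower. Neutrophil genes went the other way, from 6.57 to 12.4 CPM in the control up to 144 to 178 CPM in the OA-AP group, with 5 of 5 tested called higher. The part of these cell types in the change of the class II genes was not tested.

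**Figure D4:**
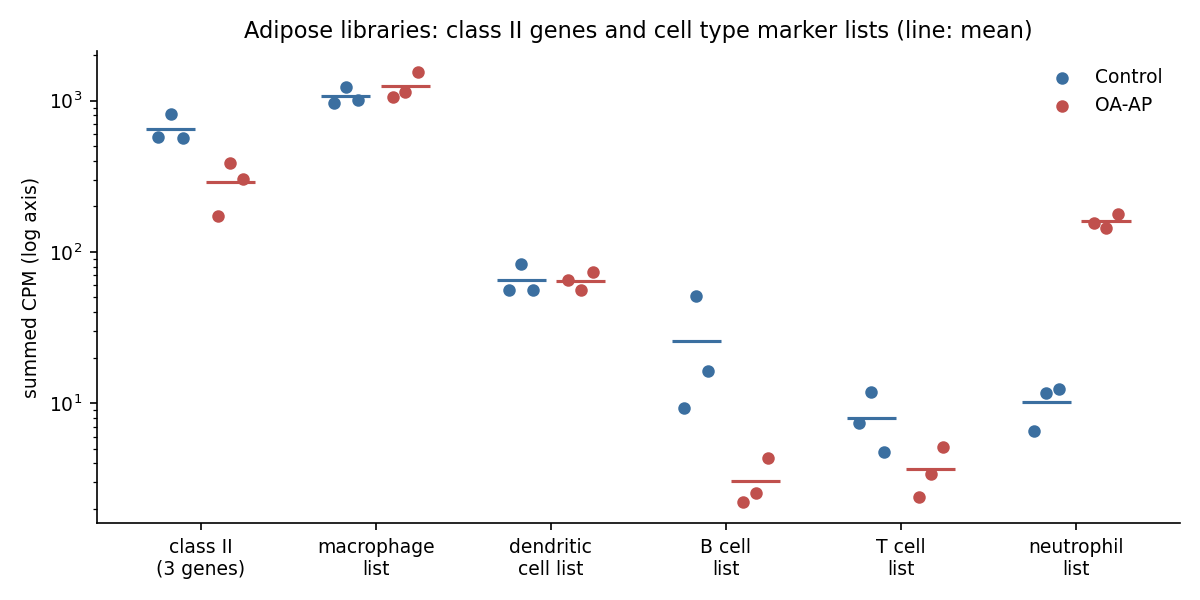
Summed CPM of the 3 class II chains and of 5 cell type marker lists in each adipose library, on a log axis, with 1 point per library and a line at the group mean. Macrophage and dendritic cell sums overlap between groups, B cell sums lie lower and neutrophil sums higher in every OA-AP library.

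In the pancreas, B cell genes summed to 0.499 to 0.944 CPM in the control and 0.735 to 0.858 CPM in the OA-AP group, and none was abundant enough to be tested. The macrophage sum was 39.9 and 76.5 CPM against 56.8 to 63.8 CPM, with Lyz2 its most abundant gene (means of 22.1 and 20.6 CPM). Of its 8 genes 1, Csf1r, was called lower (-1.16, adjusted p = 0.0197, edgeR), against 13.5% of all genes tested. None of the 8 was called without control replicate 1 or OA-AP replicate 1, and under library totals 3 were called, all higher. Class II chain counts per macrophage list count were 0.518 and 0.772 in the control and 0.323, 0.284 and 0.259 in the OA-AP pancreas, without overlap and free of scaling. Per dendritic cell list count they were 3.47 and 3.55 against 1.97, 2.73 and 2.82, on a list of which 1 gene could be tested and was not called by edgeR or DESeq2, with 0 at an unadjusted p-value under 0.05. Zbtb46 alone made up 67.8% to 86.7% of that sum, so the ratio is mostly one to Zbtb46. Neutrophil genes summed to 0.944 and 1.89 CPM in the control and to 12.3, 3.26 and 95 CPM in OA-AP replicates 1 to 3, so the OA-AP libraries differed among themselves far more in these genes than in the class II chains.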

How the data were processed

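RNA was sequenced from pancreas (2 control and 3 OA-AP libraries) and epididymal adipose tissue (3 and 3), 11 libraries in all. The authors trimmed reads with Trim Galore (0.6.6), checked them with fastp (0.20.1), mapped them to GRCm38 with STAR and quantified them per gene with featureCounts (2.0.1), and they deposited raw counts per gene without normalization, with 1 table per tissue. The annotation release and the strand setting were not given in the sources used here. Groups were taken from the sample labels, and the 28 gene symbols that a spreadsheet had turned into dates were restored by gene ID.

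In R (4.3.3), edgeR (4.0.16) filterByExpr removed genes with low counts, TMM factors scaled the libraries, and each tissue was fitted apart with the robust quasi-likelihood test, with Benjamini-Hochberg adjustment over all genes tested. Calls needed a 1.5-fold change and an adjusted p-value under 0.05, or the adjusted p-value alone for the tissue by condition term, which used the 45260 genes in both tables. Standard errors were derived from the F statistic. The 95% intervals use the total degrees of freedom of that fit, which add those borrowed across genes to the residual ones. CPM used TMM-scaled library sizes. Reads were counted without molecular identifiers, and standard errors and p-values rest on the spread between libraries. The tests were checked on simulated data.

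The members and the gene lists were chosen with earlier results of these data known. Named are all 10 members, 7 pathway genes regardless of their values (B2m, Nlrc5, Psmb8, Psmb9, Irf1, Rfx5 and Ctss), and up to 3 called genes of each pathway list and tissue with the smallest p-value. Other genes that this rule covers are left out here. Marker genes, and list genes that only an alternative called, were named after their values were seen. Alternatives were DESeq2 (1.42.0), its size factors, library totals, TMM without acinar genes, other filters and fold minimums, each library left out and the replicate block. The alternatives counted for a single gene leave out the other fold minimums. Leaving libraries out and DESeq2 for the list counts, and a block over tissues, were added after seeing the data. Same-numbered libraries of the control and OA-AP groups did not deviate together (correlations of -0.16 to 0.06), so the block is only an alternative.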

Additional observations from a re-analysis of the deposited data

Results flagged for a closer look

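Among the genes of the pathway lists, 7 changed differently in the tissues by edgeR's quasi-likelihood test of the tissue by condition term. They were 1 of 14 class II partners tested, 5 of 20 class I partners, 1 of 8 interferon genes and 0 of 5 genes of the co-stimulation list. These shares were 7.14%, 25%, 12.5% and 0%, against 21.3% of all 17046 genes tested. Psmb10 fell by 2.20 on the log2 scale in the pancreas and stood at 0.05 in adipose tissue, a difference of 2.23 (adjusted p = 9.74e-05). B2m stood at -1.44 in the pancreas and 0.09 in adipose tissue, a difference of 1.52 (adjusted p = 0.016), which was 0.68 and not called under library totals and 1.21 and not called without pancreas control replicate 1. With same-numbered pancreas and adipose libraries of a group taken as 1 mouse it was 1.42 and not called. Lgmn rose by 2.56 in the pancreas and stood at 0.55 in adipose tissue, a difference of -2.01 (adjusted p = 0.0097), which was -1.7 and not called without pancreas control replicate 2. Ifngr2 stood at -0.49 in the pancreas and rose by 0.63 in adipose tissue, a difference of 1.10 (adjusted p = 0.00197), which was 0.26 and not called under library totals. Tapbp fell by 0.75 in the pancreas and stood at 0.25 in adipose tissue, a difference of 0.99 (adjusted p = 0.0099), which was 0.16 under library totals and 0.74 without pancreas control replicate 1, not called in either. Tapbpl rose by 1.06 in the pancreas and stood at -0.33 in adipose tissue, a difference of -1.40 (adjusted p = 0.0116), which was -1.37 and -1.42 and not called without pancreas control replicate 1 or 2. Tap2 stood at 0.30 in the pancreas and -0.47 in adipose tissue, a difference of -0.77 (adjusted p = 0.0241), which was -0.66 without pancreas control replicate 2 and -0.83 with libraries paired as 1 mouse, not called in either. None of the 10 antigen presentation genes themselves was called in this test.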

How the results depend on the processing

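In adipose tissue 7 of the 10 genes were called, 4 when no filter on low counts was used, and 4 to 7 when 1 library was left out. The number was 4 without control replicate 2, control replicate 3 or OA-AP replicate 3. H2-Aa and H2-Eb1 lost their call in 5 of 13 alternatives that kept the 1.5-fold minimum, and Cd74 in 4. At a 2-fold minimum H2-DMb1, at 1.99-fold, was not called. With 1 adipose library left out, H2-K1 ran from -0.35 to 0.04 and H2-D1 from -0.19 to 0.12, positive without control replicate 2. In the pancreas 4 genes were called, 1 under library totals (H2-D1, higher, 0.83), 2 at a fold change of at least 2, and 0 to 4 with 1 library left out, the 0 without control replicate 1. Library totals turned H2-DMa to 0.59, H2-DMb1 to 0.01, H2-K1 to 0.31 and Tap1 to 0.53. With 1 pancreas library left out, H2-DMa ran from -0.52 to 0.63, positive without control replicate 1 or OA-AP replicate 1 (0.08), and Tap1 from -0.47 to 0.24, positive without control replicate 1. A minimum of 10 counts in every sample left 7 of the 10 genes in the pancreas. The replicate block left 4 calls in the pancreas, 7 in adipose tissue and 0 for the tissue difference, on numbers that do not pair the libraries. Taking same-numbered pancreas and adipose libraries of a group as 1 mouse, a block added after the data were seen, also gave 0 for the tissue difference.

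For the tissue difference 0 genes were called, and 2 under library totals: H2-DMa (-1.83, adjusted p = 0.00729) and H2-D1 (-1.07, adjusted p = 0.00787), both by edgeR. Library totals turned Ciita to -0.64 and H2-K1 to -0.68. H2-Eb1, at -0.03, was 0 with DESeq2 or its size factors. With 1 library left out, H2-Eb1 ran from -0.41 to 0.21, H2-K1 from -0.03 to 0.37 and Tap1 from -0.85 to 0.07. Of all genes called, 54.5% were higher in the pancreas and 48.1% in adipose tissue, and 92% and 32.1% under library totals. The tissue difference was positive for 50.7% of calls and for 5.88% under library totals. Causes were not tested.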

Other observations

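The genes whose pattern over libraries was most like the mean of H2-Aa, H2-Ab1, H2-Eb1 and Cd74 were ranked by Pearson r of log2 CPM, among genes whose mean log2 CPM reached 3. Over the 6 adipose libraries and 10017 genes they were Fgd4 (r = 0.994), Pde8a (0.991), Apba1 (0.99), Maml2 (0.989) and Kif21b (0.989). Kif21b went from 11.9 to 5.91 CPM and Maml2 from 33 to 19 CPM between the control and OA-AP means. Over the 5 pancreas libraries and 5694 genes they were Spg11 (0.999), Lrp6 (0.998), Dus3l (0.997), Mea1 (0.992) and Cdip1 (0.991). Libraries of a tissue share their group, so these values describe likeness over few points, and the lists of the tissues had no gene in common.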
